A study of Homo sapiens with 18 samples.

Results

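GPX1, glutathione peroxidase 1, and GPX1P1, a pseudogene copy of it, are 2 of the 58676 Ensembl gene IDs in a count table from RNA immunoprecipitation sequencing (RIP-seq), in which RNA held by a tagged protein is pulled out of a lysate on beads and set against the input, RNA from that lysate before the pull-down. They were taken by Ensembl ID, ENSG00000233276 for GPX1 and ENSG00000197582 for GPX1P1, and both were among the 17678 IDs that passed the low-count filter over all libraries. HEK293T cells, an easily transfected line of human embryonic kidney origin, were transiently transfected in 3 ways: with a Flag-SBP2 plasmid and 100 nM sodium selenite, with the Flag-SBP2 plasmid alone, or with the Flag plasmid alone (the Flag vector control). All lysates were harvested 48 h after transfection and precipitated with anti-Flag beads. Each treatment had 3 biological replicates per the series design, each with a RIP and an input library, which gave 6 groups and 18 libraries. Expression was transient and in 1 cell line, whose growth protocol names it HEK293, and no group received selenite without Flag-SBP2. Nothing states that replicates came from separate days, so p-values measure the spread between these lysates.

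GPX1 is a selenoenzyme of the cytosol and mitochondria that uses glutathione to reduce hydrogen peroxide. Its active site holds selenocysteine, encoded by a UGA codon that would otherwise end translation. Reading that codon as selenocysteine needs a SECIS element, a hairpin in the untranslated region downstream of the coding sequence, and SBP2, the protein that binds it. GPX1 mRNA is known as one of the selenoprotein mRNAs most sensitive to selenium supply, its level falling in selenium-poor cells. In RefSeq (GRCh38.p14) GPX1 lies at chr3:49357176-49358353 on the minus strand, with 5 listed transcripts. No other RefSeq gene overlaps it, and the nearest, RHOA, lies 791 bases away. GPX1P1, listed as a pseudogene with no transcript, lies at chrX:13378525-13379387, a span of 863 bases with no overlapping gene and 8163 bases from the nearest one. How reads that match both loci were counted is not given in the sources used here.

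The smallest library held 15.2 M counts and the largest 29.9 M, where M is 1e+06. GPX1 held 1590 to 54864 counts per library and GPX1P1 161 to 5913, so counting error was small for GPX1 everywhere and largest for GPX1P1 in the Flag vector RIP. The transfected gene and markers of HEK293T could not be looked up by name, since the files give IDs only and no entry of the gene table used here carries an Ensembl ID. The other selenoprotein genes and the glutathione and peroxide genes were not analysed here by name for the same reason.

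GPX1 RNA was abundant in both Flag-SBP2 precipitates and scarce in the Flag vector precipitate. Values are CPM, counts per 1e+06 after TMM scaling of each library. With Flag-SBP2 and selenite GPX1 had 2293.5, 2025 and 2146 CPM in the RIP, against 371, 384 and 468 CPM in the input. With Flag-SBP2 alone it had 1543, 1694 and 1644 CPM in the RIP, against 269, 260 and 275 CPM in the input. With the Flag vector it had 63.3, 59.7 and 60.2 CPM in the RIP, against 307, 312 and 342 CPM in the input. RIP and input libraries were separate in every treatment, with the RIP above input with Flag-SBP2 and below it with the Flag vector. The order of the group means, from high to low, was selenite RIP, Flag-SBP2 RIP, selenite input, Flag vector input, Flag-SBP2 input and Flag vector RIP, and no neighbours in this order had overlapping libraries.

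GPX1P1 showed the same order at a lower count. With Flag-SBP2 and selenite it had 228, 218 and 225 CPM in the RIP, against 38.7, 40.7 and 50.2 CPM in the input. With Flag-SBP2 alone it had 165, 174 and 173 CPM in the RIP, against 27.2, 27.3 and 29.8 CPM in the input. With the Flag vector it had 7.001, 6.05 and 6.20 CPM in the RIP, against 36.8, 32.7 and 38.5 CPM in the input. Again no neighbouring groups overlapped, but the selenite and Flag vector inputs nearly touched. The lowest selenite input had 38.7 CPM and the highest Flag vector input 38.5 CPM, a gap below the SD of either group (6.14 and 2.96 CPM). Between the highest and the lowest group mean GPX1 spanned 35.3-fold and GPX1P1 34.9-fold.

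**Figure D1:**
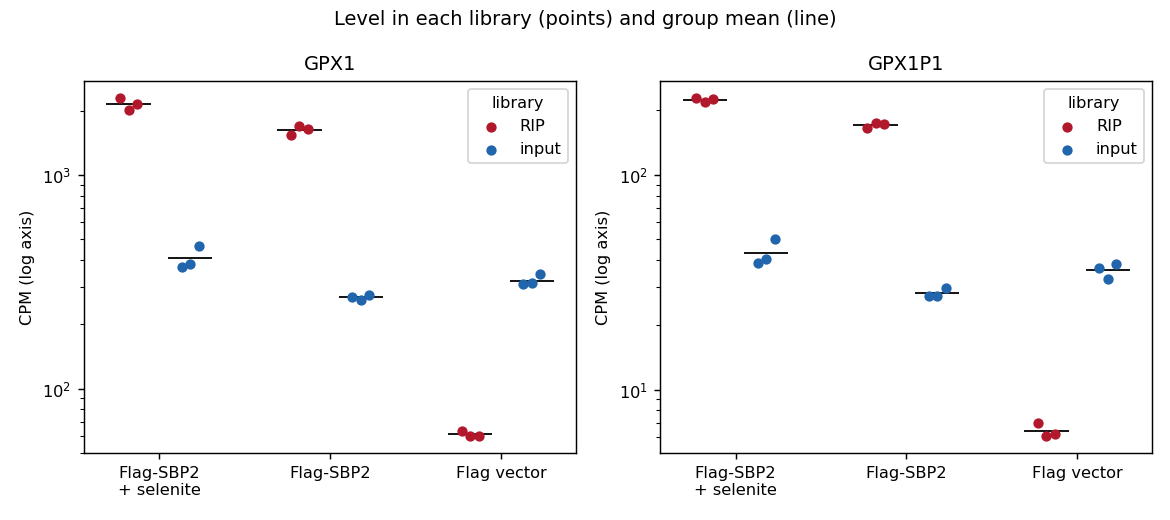
Level of GPX1 (left) and GPX1P1 (right) in each of the 18 libraries, in CPM on a log axis, with RIP in red, input in blue and the group mean as a line. For both IDs the RIP lies above the input in both Flag-SBP2 treatments and below it with the Flag vector.

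In the Flag vector lysates, which show what the beads hold without Flag-SBP2, both IDs were lower in RIP than in input. CPM is relative to the other RNAs of the same library, so these ratios give relative and not absolute recovery. The log2 RIP-to-input ratio of GPX1 was -2.28, -2.38 and -2.50 in the 3 lysates, and that of GPX1P1 was -2.38, -2.42 and -2.62. In the fit over all IDs GPX1 fell by 2.39 on the log2 scale (SE 0.0892, edgeR adjusted p = 3.18e-17) and GPX1P1 changed by -2.49 (SE 0.105, edgeR adjusted p = 2.47e-16). Lower RIP than input was called for 39.8% of all IDs in this comparison, so the direction was common. The size was less so, as 95.9% of IDs ranked above GPX1 and 96.4% above GPX1P1, and the median of all IDs was -0.13.

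With Flag-SBP2 the ratio turned positive in every lysate. GPX1 had log2 ratios of 2.52, 2.71 and 2.58 with Flag-SBP2 alone, a mean of 2.60 ± 0.095 (SD, n = 3). GPX1P1 had 2.59, 2.67 and 2.53, a mean of 2.60 ± 0.068 (SD, n = 3). The RIP was 6.07-fold above input for GPX1 (log2 2.60, SE 0.0888, edgeR adjusted p = 1.88e-17) and 6.06-fold for GPX1P1 (log2 2.60, SE 0.0965, edgeR adjusted p = 6.39e-17). Higher RIP than input was called for 30.3% of all IDs, and the 2 members ranked 36 and 39 of 17678 by their change.

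With Flag-SBP2 and selenite the ratios of GPX1 were 2.63, 2.40 and 2.20, a mean of 2.41 ± 0.21 (SD, n = 3). Those of GPX1P1 were 2.55, 2.42 and 2.16, a mean of 2.38 ± 0.20 (SD, n = 3). The spread between lysates was wider than with Flag-SBP2 alone, and for both IDs replicate 3 was the lowest. The fitted changes were 2.40 for GPX1 (SE 0.088, edgeR adjusted p = 5.06e-17) and 2.37 for GPX1P1 (SE 0.0943, edgeR adjusted p = 2.52e-16), at ranks 35 and 38. Higher RIP than input was called here for 30.7% of IDs.

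**Figure D2:**
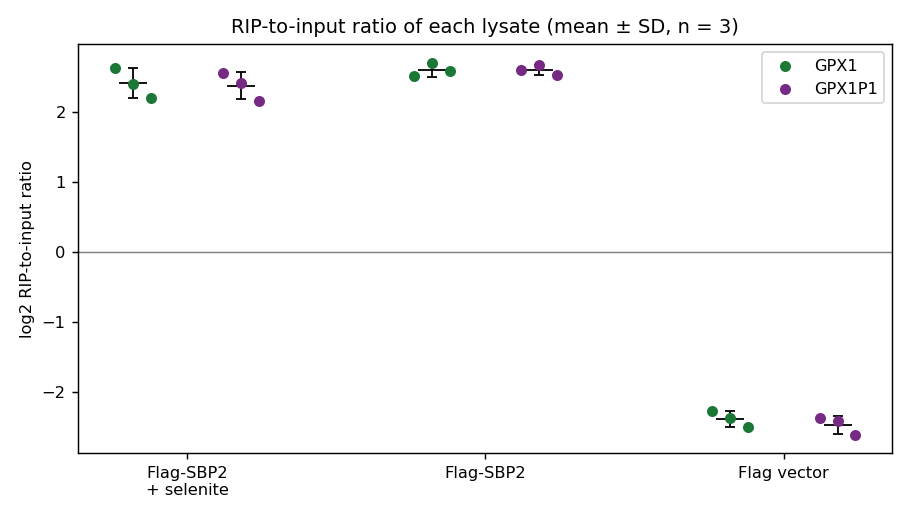
Log2 RIP-to-input ratio of each lysate for GPX1 (green) and GPX1P1 (purple), with the mean and SD of 3 lysates per treatment. All 6 lysates with Flag-SBP2 lie above 2.1 and all 3 Flag vector lysates below -2.2 for both IDs.

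Enrichment over the Flag vector, the RIP-to-input change with SBP2 minus that of the vector, placed both IDs at the far end of the distribution. With Flag-SBP2 alone GPX1 was enriched 31.9-fold (log2 4.99, SE 0.126, edgeR adjusted p = 7.94e-20) and ranked 8 of 17678 IDs. GPX1P1 was enriched 34.0-fold (log2 5.09, SE 0.143, edgeR adjusted p = 7.71e-19) and ranked 5. An enrichment was called for 21.7% of all IDs, whose median was 0.022 on the log2 scale. With selenite GPX1 was enriched 27.7-fold (log2 4.79, SE 0.125, edgeR adjusted p = 1.89e-19, rank 7) and GPX1P1 29.0-fold (log2 4.86, SE 0.141, edgeR adjusted p = 1.81e-18, rank 6), against 19.3% of IDs called enriched and a median of 0.026. Both enrichments use the same 3 Flag vector lysates, so they are not independent of each other. The ratios with Flag-SBP2 and with the Flag vector did not overlap. The two-sided exact permutation p over lysates was 0.1 for each of the 4 comparisons, the smallest that 3 against 3 allow.

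**Figure D3:**
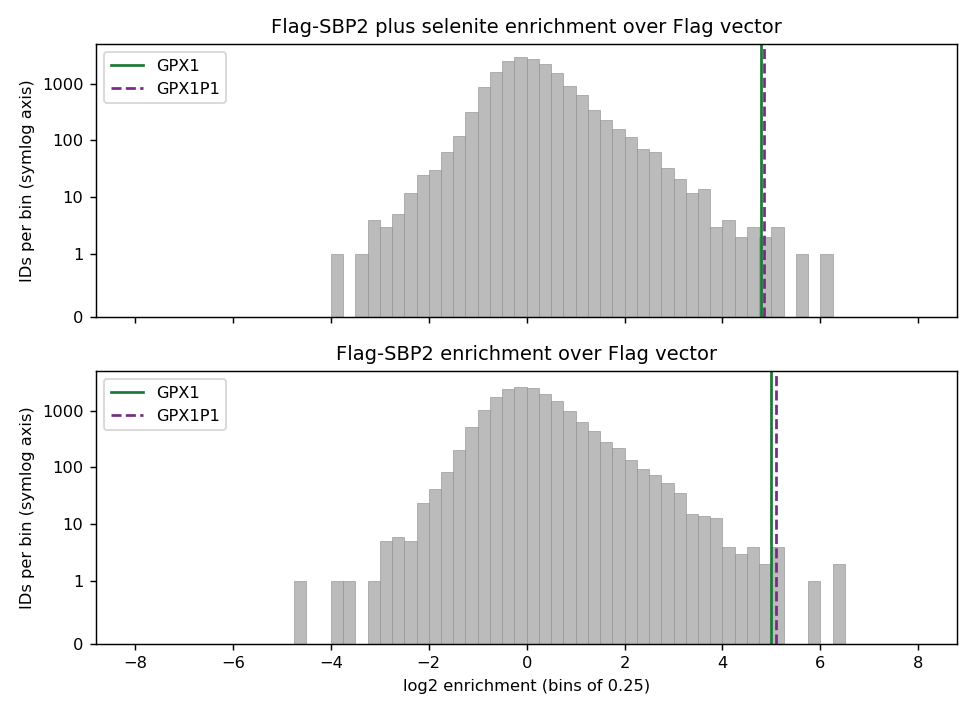
Distribution of log2 enrichment over the Flag vector for all 17678 tested IDs, in bins of 0.25 on a symlog axis, with selenite (top) and without (bottom). The lines mark GPX1 and GPX1P1, between 4.79 and 5.09, where bins hold few IDs.

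Set directly against the Flag vector RIP, without inputs, GPX1 was 35.3-fold higher in the selenite RIP (log2 5.14, 95% interval 4.93 to 5.35, edgeR adjusted p = 2.39e-22) and 26.6-fold higher in the Flag-SBP2 RIP (log2 4.74, SE 0.0982, edgeR adjusted p = 7.31e-22). GPX1P1 was 34.8-fold higher (log2 5.12, SE 0.110, edgeR adjusted p = 9.69e-22) and 26.5-fold higher (log2 4.73, SE 0.108, edgeR adjusted p = 3.00e-21). Higher RIP levels were called for 27.1% of IDs with selenite and 29.4% without. In these RIP-to-RIP comparisons the value with selenite was the larger one, and in the enrichments, which subtract the input, it was the smaller one.

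The lysate held more GPX1 RNA with selenite, a difference that passed with same-numbered inputs paired, without a low-count filter, with DESeq2 or without 1 Flag vector library, and otherwise not. GPX1 averaged 408 ± 52.4 CPM in Flag-SBP2 inputs with selenite and 268 ± 7.86 CPM in those without (SD, n = 3), with no overlap. The change was 1.52-fold (log2 0.60, SE 0.0973, 95% interval 0.40 to 0.81). Its unadjusted edgeR p was 1.89e-05, but it did not pass over all IDs (edgeR adjusted p = 0.157). With the replicate number as a block over all inputs, GPX1 rose by 0.60 (SE 0.063, edgeR adjusted p = 1.35e-05). The correlation of same-numbered selenite and Flag-SBP2 inputs (lowest 0.11) was only just above the pairing limit of 0.1. This block also pairs Flag-SBP2 with Flag vector inputs, whose lowest correlation (0.0846) was below that limit. GPX1P1 averaged 43.2 ± 6.14 CPM with selenite and 28.1 ± 1.47 CPM without (SD, n = 3), a log2 change of 0.62 (SE 0.119, edgeR adjusted p = 0.639). With the block it rose by 0.62 (SE 0.0829, edgeR adjusted p = 0.000717). Without the block 0.00602% of IDs were called higher, a single ID, and with it 0.0301%, which is 5 of 16616. By log2 change GPX1 ranked 188 and GPX1P1 171 among them. The selenite input of replicate 3 was the highest for both IDs. Without it the change of GPX1 was 0.49 (edgeR adjusted p = 0.495), and leaving out Flag vector input replicate 3 gave 0.61 (edgeR adjusted p = 0.0456).

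The RIP levels were also higher with selenite, by a difference that did not pass over all IDs. GPX1 averaged 2155 ± 135 CPM in the selenite RIP and 1627 ± 76.8 CPM in the Flag-SBP2 RIP (SD, n = 3), a 1.32-fold difference (log2 0.41, SE 0.0835, unadjusted p = 5.89e-05, edgeR adjusted p = 0.0961). GPX1P1 averaged 224 ± 4.88 CPM and 170.5 ± 5.07 CPM (SD, n = 3), a log2 difference of 0.39 (SE 0.0878, edgeR adjusted p = 0.0961). Neither passed in this fit, although the libraries did not overlap. GPX1 passed with DESeq2 (adjusted p = 0.00312) and with limma voom (adjusted p = 0.0312), and so did GPX1P1 (DESeq2 adjusted p = 0.00827, limma voom adjusted p = 0.0365). In the edgeR fit 0.00566% of IDs, again a single one, were called higher. DESeq2 called 4 of 17678 IDs higher and 116 lower, and limma voom called 4 and 29. GPX1 passed without Flag vector input replicate 1, a library outside the comparison (log2 0.40, edgeR adjusted p = 0.0406). GPX1 also passed without a low-count filter. Both IDs passed with the replicate block, although the RIP groups were not taken as pairs by number.

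Recovery relative to input did not differ detectably with selenite. The difference between both RIP-to-input changes was -0.20 for GPX1 (SE 0.119, 95% interval -0.44 to 0.044) and -0.23 for GPX1P1 (SE 0.130), with an edgeR adjusted p of 0.989 for each. The interval for GPX1 leaves room for a recovery lower by up to 0.44 on the log2 scale, or higher by 0.044. Both differences leaned on the selenite input of replicate 3: without it they were -0.090 for GPX1 and -0.11 for GPX1P1 (edgeR adjusted p = 0.9998 for each). Over single lysates the mean ratio differed by -0.19 for GPX1 (two-sided exact permutation p = 0.3) and by -0.22 for GPX1P1 (two-sided exact permutation p = 0.2), where 0.1 is the smallest p possible. The selenite ratio was the lower one in 2 of 3 same-numbered lysates for GPX1 and in 3 of 3 for GPX1P1. RIP groups were not taken as pairs by number, so these counts are descriptive and not paired evidence. Called IDs made up 0% of those tested by edgeR (0 of 17678, with 800 at an unadjusted p under 0.05), and DESeq2 and limma voom called 0 as well.

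Without selenite, GPX1 RNA in the lysate was lower with SBP2 than with the vector, by a difference that did not pass without a replicate block. GPX1 averaged 268 ± 7.86 CPM in Flag-SBP2 inputs and 321 ± 18.9 CPM in Flag vector inputs (SD, n = 3), with no overlap (log2 -0.25, SE 0.0971, edgeR adjusted p = 0.238). GPX1P1 averaged 28.1 ± 1.47 CPM in Flag-SBP2 inputs and 36.0 ± 2.96 CPM in Flag vector inputs (SD, n = 3), a log2 change of -0.35 (SE 0.119, edgeR adjusted p = 0.19). Neither passed in this fit, and 0.518% of IDs were called lower. With the replicate number as a block both passed (edgeR adjusted p = 0.00807 for GPX1 and 0.00597 for GPX1P1). The numbers of these groups were not taken as pairs, as their lowest correlation (0.0846) was below the limit of 0.1. Their range (up to 0.221) still overlapped that of selenite and Flag-SBP2 inputs (0.110 to 0.189), which were taken as pairs. The block called 1501 of 16616 IDs lower. With SBP2 and selenite together GPX1 lay above the Flag vector input, at 408 ± 52.4 against 321 ± 18.9 CPM (SD, n = 3), a log2 change of 0.35 (SE 0.097, edgeR adjusted p = 0.145). GPX1P1 lay at 43.2 ± 6.14 against 36.0 ± 2.96 CPM (SD, n = 3), a log2 change of 0.27 (SE 0.118, edgeR adjusted p = 0.411). Without the selenite input of replicate 3 the changes were 0.24 for GPX1 (edgeR adjusted p = 0.239) and 0.14 for GPX1P1 (edgeR adjusted p = 0.619). Higher levels were called for 0.307% of IDs, and for 2.26% with the block. With the replicate number as a block, both rose in this last comparison, GPX1 by 0.35 (edgeR adjusted p = 0.00101) and GPX1P1 by 0.27 (edgeR adjusted p = 0.0495, close to the threshold of 0.05).

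**Figure D4:**
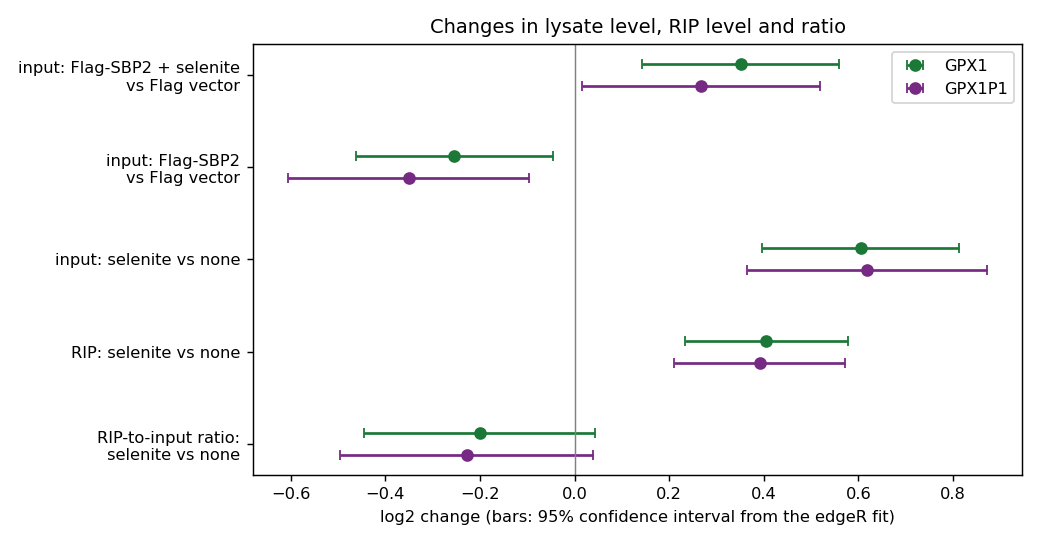
Log2 changes of GPX1 (green) and GPX1P1 (purple) between inputs, between RIPs and between RIP-to-input ratios, with 95% intervals from the edgeR fit, which are not adjusted for the number of IDs. The lysate level with selenite lies 0.60 (GPX1) and 0.62 (GPX1P1) above that without, and the intervals of the ratio include 0.

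The count of the pseudogene followed that of the gene in a nearly fixed proportion. Of the counts of both IDs together, GPX1P1 held 9.03 to 10.7% in the 18 libraries, 9.49% when all were pooled (35745 against 340997 counts). In RIP libraries the share averaged 9.42 ± 0.35% with Flag-SBP2 and selenite, 9.49 ± 0.16% with Flag-SBP2 and 9.49 ± 0.41% with the Flag vector (SD, n = 3). In input libraries it averaged 9.58 ± 0.12%, 9.49 ± 0.30% and 10.1 ± 0.60% in the same order of treatments (SD, n = 3). The highest and the lowest share were 1.66 percentage points apart, while the level of GPX1 changed 35.3-fold between groups.

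The least deep share came from the Flag vector RIP of replicate 2, 9.19% of 1751 counts with an exact (Clopper-Pearson) 95% interval of 7.88 to 10.6%. The highest came from the Flag vector input of replicate 1, 10.7% (9.83 to 11.6%), and the lowest from the selenite RIP of replicate 1, 9.03% (8.80 to 9.26%). These intervals cover counting error only. The shares varied more than counting error alone gives, at a chi-square of 2.09 per degree of freedom over 18 libraries. RIP minus input differed by -0.16 percentage points with selenite (two-sided exact permutation p = 0.7), -0.0062 with Flag-SBP2 (p = 0.9, exact) and -0.61 with the Flag vector (p = 0.2, exact), each 3 against 3. Over all 9 RIP and 9 input libraries, exchanged within treatments, the mean difference was -0.26 (two-sided exact permutation p = 0.153, 0.4 after Benjamini-Hochberg adjustment over these 4 tests). Taken by lysate, the RIP share was below that of its own input in 2 of 3 selenite, 2 of 3 Flag-SBP2 and 3 of 3 Flag vector lysates, 7 of 9 in all (two-sided exact sign-flip permutation p = 0.082).

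**Figure D5:**
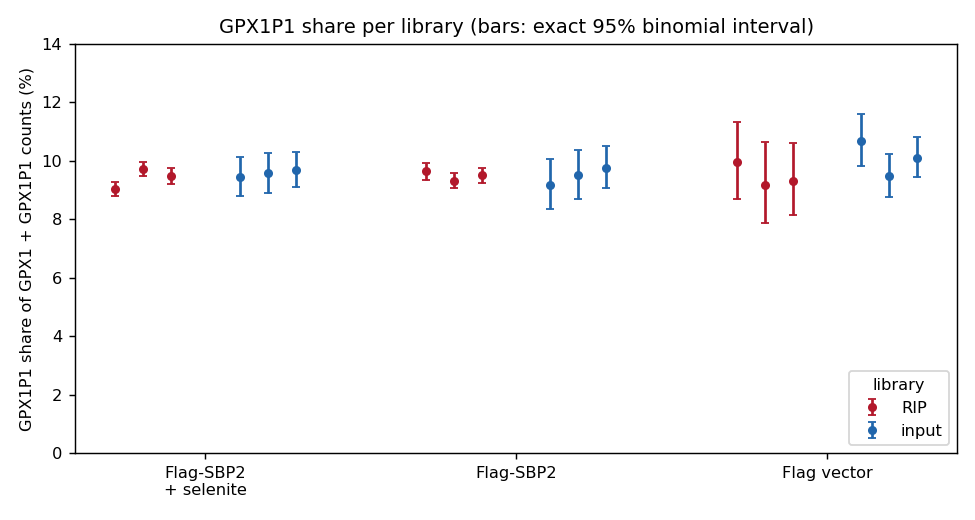
Share of GPX1P1 in the summed counts of GPX1 and GPX1P1, in percent, for each library (RIP red, input blue), with exact 95% binomial intervals. All 18 libraries lie between 9.03 and 10.7%.

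Each of the 2 IDs was also the closest match of the other by profile, while pairs of other IDs were not compared. Across the 18 libraries, which share their groups and scaling, log2 CPM of GPX1 and GPX1P1 correlated at r = 0.9994, the highest of 13204 IDs compared for either one. Within the 9 RIP libraries r was 0.9998 and within the 9 inputs 0.970. The RIP value rests on the wide gap between Flag vector libraries (mean 61.1 CPM for GPX1) and those with Flag-SBP2 (1627 and 2155 CPM). Any 2 IDs that share such a gap correlate closely, whatever they do within a group. The next most similar to GPX1 were ENSG00000100461 (r = 0.987) and ENSG00000178980 (r = 0.986), and to GPX1P1 ENSG00000100461 (r = 0.989) and ENSG00000143436 (r = 0.985). Likeness in this measure leaves out size: ENSG00000100461 averaged 193 CPM in the selenite RIP and 94.5 CPM in the Flag vector RIP, a much smaller span than that of GPX1. ENSG00000178980 averaged 953 CPM in the selenite RIP, 426 CPM in the Flag-SBP2 RIP and 12.8 CPM in the Flag vector RIP.

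Whether counts of GPX1P1 stem from pseudogene transcripts or from GPX1 reads placed there was not tested, since the table holds counts and no reads. Summing both IDs before the fit moved the GPX1 result little: the enrichment was 5.00 for the sum with Flag-SBP2 alone (SE 0.126, edgeR adjusted p = 7.52e-20) and 4.80 with selenite (SE 0.125, edgeR adjusted p = 1.82e-19), and the selenite change of the input was 0.61 (edgeR adjusted p = 0.155). The values of GPX1P1 are given beside those of GPX1 and not as separate evidence.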

How the data were processed

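The authors deposited whole-number counts per Ensembl gene ID for 18 libraries. Per the submitters' processing notes, the tools were Trim Galore 0.6.6, STAR 2.7.6a and featureCounts 2.0.1, and the genome build was GRCh38 (hg38). Which annotation and strand setting were used, and what was done with reads that match several places, is not given in the sources used here. Groups and replicate numbers came from the sample titles.

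Counts were filtered (filterByExpr, minimum count 10, minimum total 15), TMM-scaled and tested with edgeR 4.0.16 (two-sided quasi-likelihood test, R 4.3.3), with Benjamini-Hochberg adjustment over all IDs kept and a threshold of 0.05. RIP comparisons used a model of 6 groups over 18 libraries (17678 IDs) and input comparisons the 9 inputs (16616 IDs). Neither model had a term for lysate or replicate number, so the main SEs and p-values leave the pairing of RIP and input out. Only the replicate block used it. SEs came from the test statistic. Log2 CPM used a prior count of 2. Named beside the members were the 2 IDs most like each by Pearson r of log2 CPM, among IDs with a mean of 1 or more. Shares were compared with exact permutation tests (Python 3.11.15). The fit was tested on simulated data. The members and lists were chosen with earlier results of these data known. Alternatives were other scalings, no filter, DESeq2 1.42.0, limma 3.58.1 (voom), a replicate block, summed IDs, thinned counts and omission of each library.

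A RIP and its same-numbered input count as 1 lysate, per the labels' protocols, although their deviations from group means correlated at only 0.0012 to 0.195. Same-numbered inputs correlated at 0.129 to 0.314 (selenite and Flag vector) and 0.110 to 0.189 (selenite and Flag-SBP2), above the limit of 0.1. They were taken as paired in the replicate block only, since the main fit had no replicate term. Flag-SBP2 and Flag vector inputs (0.0846 to 0.221) and the RIP groups (lowest 0.0435) were not taken as pairs. The range of the former overlaps that of selenite and Flag-SBP2 inputs. If selenite inputs pair by number with each of the other input groups, those groups pair too. The limit is thus no ground to rank 1 input block result above another. The input block was fitted over all inputs at once, so it paired Flag-SBP2 and Flag vector inputs as well. RefSeq entries were matched by symbol. The gene table holds 59792 genes and 0 Ensembl IDs.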

Additional observations from a re-analysis of the deposited data

Results flagged for a closer look

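The RIP-to-input change of both IDs differed between treatments by the test of the difference itself. With Flag-SBP2 and selenite against the Flag vector it differed by 4.79 on the log2 scale for GPX1 (edgeR adjusted p = 1.89e-19) and by 4.86 for GPX1P1 (edgeR adjusted p = 1.81e-18). With Flag-SBP2 alone against the Flag vector it differed by 4.99 for GPX1 (edgeR adjusted p = 7.94e-20) and by 5.09 for GPX1P1 (edgeR adjusted p = 7.71e-19). In each case 3 of 3 lysates with SBP2 lay above input and 3 of 3 with the Flag vector below it.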

How the results depend on the processing

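Of 603 recomputed values over 25 results, 582 kept both their direction and their side of the threshold, 21 newly passed it and 0 reversed or lost a call. Every enrichment over the Flag vector and every RIP-to-input change kept its call under each alternative run, the enrichments at 4.63 to 5.15 on the log2 scale. The calls that changed all concern selenite, SBP2 inputs or the share, and the cause was not tested.

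For selenite RIP against Flag-SBP2 RIP, GPX1 passed at 0.39 without a low-count filter (edgeR adjusted p = 0.00604), 0.39 with DESeq2 (adjusted p = 0.00312), 0.40 with limma voom (adjusted p = 0.0312) and 0.40 with the replicate block (edgeR adjusted p = 0.0122). Over all IDs these settings called 5 higher and 78 lower, 4 and 116, 4 and 29, and 4 and 72, in the same order, against 1 and 0. Omitting libraries gave 0.36 to 0.44. GPX1P1 passed at 0.37 with DESeq2 (adjusted p = 0.00827), 0.39 with limma voom (adjusted p = 0.0365) and 0.39 with the block (edgeR adjusted p = 0.018). The numbers of these RIP groups were not taken as pairs (lowest same-numbered correlation 0.0531), which limits the block results for both IDs.

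For selenite against Flag-SBP2 inputs, GPX1 passed at 0.61 without a filter (edgeR adjusted p = 8.81e-06), 0.61 with DESeq2 (adjusted p = 0.000382) and 0.60 with the block, where 5 higher and 22 lower, 3 and 0, and 5 and 32 IDs were called, against 1 and 0. Omissions gave 0.49 to 0.67. GPX1P1 passed at 0.62 without a filter (edgeR adjusted p = 0.00356), 0.62 with DESeq2 (adjusted p = 0.0137) and 0.62 with the block. With limma voom neither passed.

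For selenite against Flag vector inputs, GPX1 passed at 0.37 without a filter (edgeR adjusted p = 0.0295) and 0.35 with the block, and GPX1P1 at 0.27 with the block, where 162 higher and 167 lower, and 375 and 755 IDs were called, against 51 and 41. For Flag-SBP2 against Flag vector inputs only the block gave calls, -0.25 for GPX1 (edgeR adjusted p = 0.00807) and -0.35 for GPX1P1 (edgeR adjusted p = 0.00597), where the numbers were not taken as pairs. The block changed no other call. It also raised the calls over all IDs, from 60 higher and 86 lower to 1233 and 1501 for Flag-SBP2 inputs, so its calls are to be read against that background.

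The share of GPX1P1 was lower in RIP by 0.47 percentage points (difference -0.47, exact permutation p = 0.036) in 1 random thinning to 15.2 M counts, against -0.16 to -0.36 on omitting libraries and -0.26 over 9 lysates paired by number as a replicate block (exact permutation p = 0.082), an alternative added after seeing the data. Its precision is limited by the 161 to 208 counts of GPX1P1 in each Flag vector RIP.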
